A study of Drosophila melanogaster with 2 samples.

Results

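The autosomal intergenic peaks of the transcription factor CrebA are the stretches of chromatin on the major autosomal arms that were precipitated with CrebA-eGFP outside annotated genes. A peak was counted here when its summit lay more than 500 bp from every annotated transcript start and inside no annotated gene, with transposable elements not treated as genes. Of the 2238 peaks in the authors' optimal list on dm6, 1859 lay on the major autosomal arms, and 266 of those were intergenic, which is 14.3% of the autosomal peaks (95% Wilson interval 12.8 to 16.0) and 11.9% of all peaks. The other autosomal peaks were 773 with a summit within 500 bp of a start, called promoter peaks below, and 820 inside genes, called genic peaks.

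Chromatin immunoprecipitation with sequencing was carried out on whole Drosophila melanogaster larvae of the third instar in the wandering stage, males and females together. All animals carried CrebA-MiMIC-GFP, in which an exon encoding eGFP sits in an intron of CrebA and yields a CrebA-GFP fusion, and the chromatin was sonicated and precipitated with an antibody against GFP. There was 1 group with 2 biological replicates, numbered 4 and 2, from the same line, so the data compare no conditions. The larvae were not dissected, so a peak cannot be assigned to a tissue, and a peak present in few cells cannot be told apart from a weak peak in many. A control experiment is listed in the labels and was not analysed here. The optimal list was thresholded by the authors with the irreproducible discovery rate, which compares the ranks of peaks between replicates. Peak height is the authors' own deposited signal value, which serves here to order and describe peaks of the same list.

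CrebA is the fly member of the CREB3 family of basic leucine zipper factors and is best known for raising the expression of secretory pathway genes in the salivary gland, where it binds close to gene starts. CREB3 factors recognise sites that contain the sequence CCACGTCA. Intergenic DNA in flies holds enhancers, insulators and the response elements of Polycomb group proteins, and many such elements carry GAGAG repeats, which the GAGA factor binds.

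The sequences around 5 of the 7 strongest intergenic summits are printed here because they show how unlike each other the strongest sites were. Each is the 201 bases centred on the summit, 5′ to 3′ on the forward strand of the Release 6 RefSeq assembly (dm6), in lower case. Capitals mark the GAGA factor site GAGAG, the GATA factor site AGATAA and the forkhead site TGTTTAC on either strand, and in the window near Pdk1 they mark the CREB3 core CACGTCA instead. Each sequence is named by the protein-coding genes on either side.
CG12078 to CG43389, chr3L:3246384-3246584: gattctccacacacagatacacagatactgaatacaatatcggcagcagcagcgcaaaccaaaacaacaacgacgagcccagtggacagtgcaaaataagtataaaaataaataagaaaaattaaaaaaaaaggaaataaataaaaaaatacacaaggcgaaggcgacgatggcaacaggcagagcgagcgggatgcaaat
COX7AL2 to CG31668, chr2L:2202293-2202493: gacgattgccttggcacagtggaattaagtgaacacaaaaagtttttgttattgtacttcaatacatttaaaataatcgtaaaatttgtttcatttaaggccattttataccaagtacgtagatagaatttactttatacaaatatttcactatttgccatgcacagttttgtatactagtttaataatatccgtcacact
CG12483 to Pdk1, chr3L:128330-128530: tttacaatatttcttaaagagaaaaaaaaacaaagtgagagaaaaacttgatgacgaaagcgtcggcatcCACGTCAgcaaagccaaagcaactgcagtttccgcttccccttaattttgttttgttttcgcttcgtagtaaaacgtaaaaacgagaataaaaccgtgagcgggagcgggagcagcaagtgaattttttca
CG43245 to CG12523, chr3L:10776483-10776683: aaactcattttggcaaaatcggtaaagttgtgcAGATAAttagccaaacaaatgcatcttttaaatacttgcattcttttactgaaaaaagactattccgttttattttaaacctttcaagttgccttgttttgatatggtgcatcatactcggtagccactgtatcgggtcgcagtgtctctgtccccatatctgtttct
Ir68a to scyl, chr3L:11246137-11246337: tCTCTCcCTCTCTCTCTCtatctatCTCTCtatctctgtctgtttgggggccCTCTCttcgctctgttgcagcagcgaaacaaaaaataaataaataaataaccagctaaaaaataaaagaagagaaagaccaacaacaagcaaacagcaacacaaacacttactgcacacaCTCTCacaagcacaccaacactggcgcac

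The strongest window contained none of the marked sequences and ran through long stretches of adenine. The window between COX7AL2 and CG31668 also contained none, and its GC content was 28.9%. The window near Pdk1 was the only one of all 266 that held the full CREB3 site CCACGTCA within 100 bp of the summit. The window upstream of scyl opened with a run of CTCTC, the reverse complement of GAGAG, and held 8 matches when overlapping ones were counted separately, while the window near CG43245 held 1 copy of AGATAA.

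The strongest intergenic peak, at chr3L:3246268-3246674, had a signal of 780 in the pooled list, 394 in replicate 4 and 400 in replicate 2. By rank it stood at 23 of the optimal peaks, with ranks of 22 (replicate 4) and 26 (replicate 2), and was the strongest of all peaks outside the mitochondrial genome. Its summit lay 1488 bp from the start of lncRNA:CR45424 and 1531 bp upstream of CG43389, a gene that had a promoter peak as well, and another autosomal peak lay 1091 bp away. Both replicates therefore placed this site at about the same height and rank.

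The next intergenic peaks were weaker. The second had a pooled signal of 463, with 182 in replicate 4 and 285 in replicate 2. It lay on 2R in the gap of 36783 bp between Su(z)2, a Polycomb group gene, and CG13323, 27464 bp from the end of Su(z)2. Next came a peak between COX7AL2, named for a cytochrome oxidase subunit, and CG31668, which had a pooled signal of 378, with 162 in replicate 4 and 222 in replicate 2. Both were higher in replicate 2 than in replicate 4, as were 17 of the 20 strongest intergenic peaks.

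The peak near Pdk1, which encodes a kinase of the insulin pathway, lay at chr3L:128331-128534, 1020 bp upstream of Pdk1, and had a pooled signal of 321, with 131 in replicate 4 and 197 in replicate 2. A second intergenic summit lay 203 bp away, with a pooled signal of 82.5. The strongest replicate 4 peak within 200 bp of that second summit was the one already counted for its neighbour, the only case among the members in which 2 summits shared a replicate peak. The peak 6070 bp upstream of scyl, which encodes an inhibitor of TOR signalling, had a pooled signal of 305, with 126 in replicate 4 and 179 in replicate 2. The peak 4658 bp from CG43245 reached 312 in the pooled list, 135 in replicate 4 and 175 in replicate 2, and its nearest other autosomal peak was 33516 bp away.

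Among the remaining strong sites, mtSSB, which encodes the mitochondrial single-stranded DNA binding protein, had a peak of signal 260 at 2003 bp upstream (103 in replicate 4, 174 in replicate 2). At the other end of the same gap, a peak of signal 223 lay 3170 bp upstream of tara, a trithorax group gene, and had a value of 164 in replicate 2 and no peak in the replicate 4 list. It was the only one of the 20 strongest that was not among the strongest 2238 peaks of both replicates. RYBP, whose product associates with Polycomb complexes, had a peak of signal 248 in the gap toward Ppa, with 136 in replicate 4 and 114 in replicate 2. The cell polarity gene scrib had one of signal 240 only 533 bp upstream, and Shrm, the fly Shroom gene of cell shape change, had one of 224 at 717 bp. Others lay farther out: the peak of signal 227 between the homeobox gene exex and RNaseX25 was 9527 bp from the nearest start, and that of signal 210 between the Toll-family receptor gene Tollo and Best4 was 25241 bp from the start of Tollo.

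The 20 strongest intergenic peaks ran down to a signal of 210. Of these, 8 lay on 3L, 7 were within 2000 bp of a protein-coding start, and for 8 the nearest start of any kind belonged to a non-coding RNA. The others in this group lay near CG6163 (330), COX7AL2 again (273 and 220), CG42808 (222), CG33687 (220), ssp3, a mitotic spindle gene (214), and CG42828 (214). Strong peaks were often narrower than the standard width of 404 bp that 229 of the 266 had. The 36 narrower members had a median signal of 187, against 99.3 for the wider ones, and 14 of the 20 strongest were narrower.

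**Figure D1:**
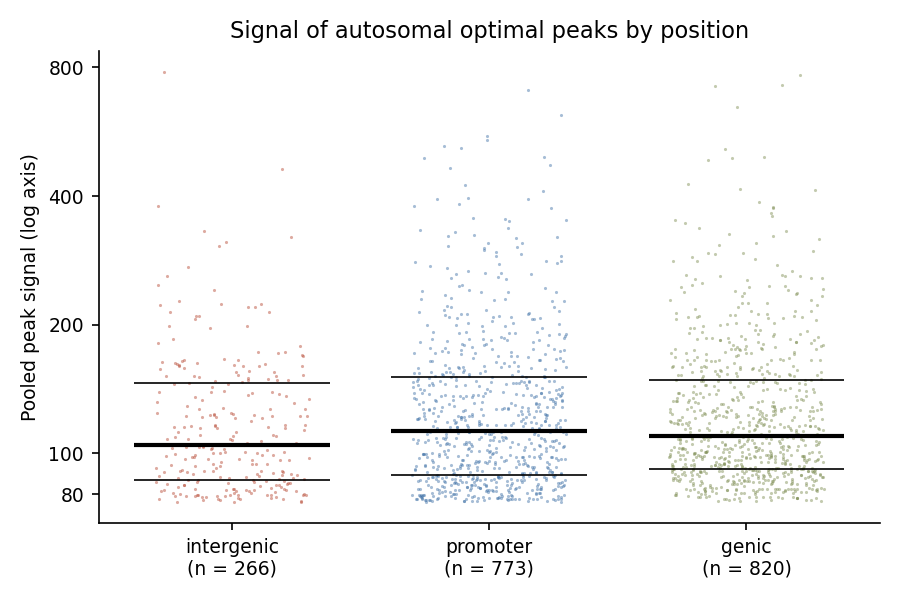
Pooled signal (log axis) of each autosomal optimal peak, grouped by position, with one point per peak. The thick line is the median and the thin lines are the quartiles. The 3 groups overlap over nearly their whole range, with medians of 105, 112 and 109, and a single intergenic peak reaches 780.

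Across all members the signal was close to that of the other autosomal peaks. The median was 105 (quartiles 86.4 and 146, range 76.9 to 780), against 112 for promoter peaks and 109 for genic peaks. Of the members, 22 of 266 exceeded a signal of 200 (8.27%, interval 5.53 to 12.2), against 93 of 773 promoter peaks (interval 9.92 to 14.5%) and 88 of 820 genic peaks (8.79 to 13.0%), and these intervals overlap. At the lower end, the weakest members were a peak near spel1 at 76.9, one near Ser at 77.0 and one near lncRNA:CR44276 at 77.0. The strongest intergenic pooled peaks left out of the optimal list lay near lncRNA:CR43337 at 76.9, comr at 76.9 and lncRNA:CR45644 at 76.8, so the list ended within a narrow range of signal.

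The replicates were compared through the strongest part of their own lists. A summit was called matched in a replicate when one of that replicate's 2238 strongest peaks had its summit within 200 bp. By this measure 181 members were matched in replicate 4, 190 in replicate 2 and 126 in both, or 47.4% (interval 41.4 to 53.4). The share matched in both was 57.3% for promoter peaks (53.8 to 60.8) and 57.1% for genic peaks (53.7 to 60.4), so the interval of the intergenic share lay below both. In neither replicate were 21 members matched (7.89%, interval 5.22 to 11.8), against 6.34% of promoter peaks (4.83 to 8.28) and 4.15% of genic peaks (2.98 to 5.74).

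The matched share can be set beside other peaks at like pooled signal, although its rise with signal is largely fixed by construction, since matching needs a high rank in each replicate and the pooled signal comes from the same 2 replicates. The autosomal peaks were cut into 4 ranges of pooled signal that each hold about as many peaks. In the weakest range, 2 of 83 members were matched in both replicates (2.41%), then 21 of 63 (33.3%), 45 of 58 (77.6%) and 58 of 62 (93.5%) in the strongest. Promoter peaks gave 5.80%, 42.6%, 86.8% and 92.5% in the same ranges. The intergenic share was the lower in 3 of the 4 ranges, and within each range the intervals of both groups overlap. The full replicate lists of 29999 entries each were deposited as peaks and background, so an entry need not be a called peak. Of the members, 255 had an entry in replicate 4 and 263 in replicate 2. The lists differed more in height than in the presence of an entry, which does not test whether a peak was present. The 11 members with no replicate 4 peak had a median pooled signal of 89.2 and included the site near tara and another in the Su(z)2 gap at 160.

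In 252 members with a peak in both lists, replicate 4 values ran from 16.5 to 394 and replicate 2 values from 19.7 to 400. Replicate 2 was the higher in 191 of them, with a median ratio of 1.37 (quartiles 1.00 and 1.84). The scaling of the signal to sequencing depth is not stated, so this ratio describes the lists and not the amount of bound protein. Spearman's rho between the replicates was 0.364 over these members, 0.466 over promoter peaks and 0.427 over genic peaks. These are descriptions across peaks of the same 2 libraries, and neighbouring peaks are not independent.

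Intergenic peaks lay closer to gene starts than the sequence open to them. The median distance from summit to nearest start was 2596 bp (quartiles 1008 and 5631). Windows of 201 bp tiled over all sequence that meets the position rule had a median of 6200 bp. The windows include sequence next to the centromeres where no member lay, such as 3.07 Mb in the first 5 Mb of 2R. The contrast was not recomputed without that sequence. The share within 500 to 1000 bp was 25.2% (67 peaks), against 5.83% of the windows, and the share beyond 20 kb was 2.63% (7 peaks), against 22.4% of the windows. Signal did not follow distance in order: the median was 103 in the band nearest to the starts, 115 from 2 to 5 kb, 96.1 from 10 to 20 kb and 145 for the 7 peaks beyond 20 kb.

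**Figure D2:**
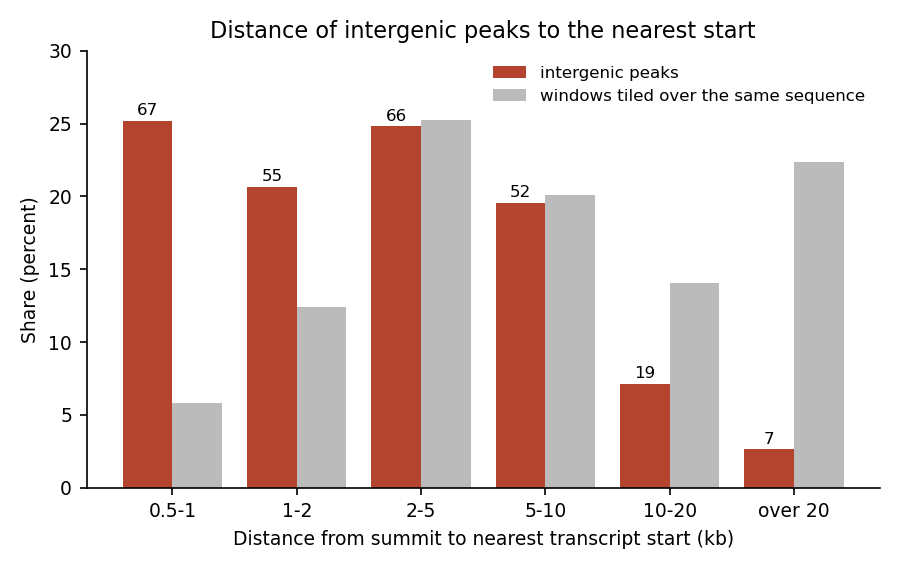
Share of intergenic peaks (red, with the number of peaks above each bar) and of windows (grey) by distance to the nearest transcript start in kb. The windows were tiled over sequence that meets the position rule, and each lay wholly inside it. The red bars exceed the grey ones below 2 kb and fall short of them beyond 10 kb.

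At the edge of the position rule, the 5 members nearest to a start lay 502 bp from CG14478, 510 bp from the cytochrome P450 gene Cyp6w1, 522 bp from lncRNA:CR45582, 527 bp from the ionotropic receptor gene Ir94h and 532 bp from lncRNA:CR44676, with signals from 82.0 to 113. Just inside the limit, and therefore counted as promoter peaks, were peaks 498 bp from the activin-like ligand gene daw, 495 bp from lncRNA:CR45243, 493 bp from lncRNA:CR45632, 487 bp from by, which encodes tensin, and 480 bp from the POU factor gene nub, with signals from 85.7 to 189. At the other extreme, 4 of the 5 most remote members lay in 1 stretch between 28858 and 34608 bp from CG43245, with signals of 138 to 161. The remaining remote member lay 34533 bp from lncRNA:CR45115, with the POU factor gene vvl as its nearest protein-coding gene at 41748 bp, and had a signal of 79.8, with 16.5 in replicate 4 and 59.8 in replicate 2.

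The nearest start of any kind was protein-coding for 173 members (65.0%, interval 59.1 to 70.5), a non-coding RNA for 87 (32.7%) and a transfer RNA for 6. Non-coding RNAs were nearest for 14.3% of genic peaks and 10.7% of promoter peaks. The share of windows nearest to a non-coding RNA was not computed, so the contrast may follow from where such genes lie. The nearest protein-coding start was downstream of the peak, so that the peak lay on its upstream side, for 166 members (62.4%, 56.4 to 68.0). Neighbouring genes were arranged divergently around 91 members, in tandem around 117 and convergently around 58. Between divergent genes a summit lies upstream of both neighbours by position alone, so the upstream share partly follows from how the genes are arranged. In the tandem gaps, where a peak can lie on either side of the nearest start, 74 were upstream (63.2%). The share of windows upstream of their nearest start was not computed for any arrangement, so these shares show no preference for the upstream side.

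For most members the nearest protein-coding gene had no peak at its own start. The 266 members had 187 different nearest protein-coding genes, of which 143 were nearest to 1 member. These genes are 1.6% of the 11669 protein-coding genes on the major autosomal arms, and 5.24% of those genes had an optimal peak within 500 bp of a start. For 45 members (16.9%, 12.9 to 21.9) the nearest protein-coding gene had such a promoter peak, against 44.0% of genic peaks (40.7 to 47.4). The share was above the 5.24% of all genes and below that of genic peaks, whose nearest gene is often the one they lie in. The share counts members, so a gene nearest to several members counts more than once, whereas the 5.24% counts genes. The share among the 187 genes was not computed.

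Members were uneven along the arms. The arm 3L held 110 of them, 22.0% of its 499 peaks (18.6 to 25.9), against 11.1% on 2L, 11.6% on 2R and 11.7% on 3R. That arm holds 29.1% of the sequence that meets the position rule and 41.4% of the members, a density of 12.3 per Mb against 7.15, 6.85 and 7.45 on 2L, 2R and 3R. Each replicate's own strongest peaks gave the same leading arm, with 113 intergenic peaks on 3L of 262 in replicate 4 and 93 of 240 in replicate 2. The order of the other arms differed between replicates: 2L had 60 in replicate 4 and 43 in replicate 2, while 2R had 36 and 46.

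**Figure D3:**
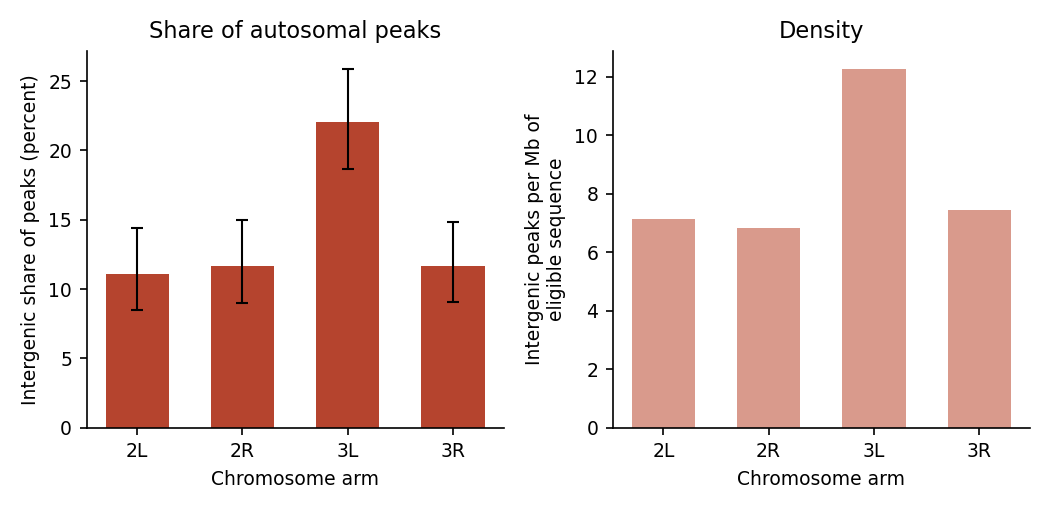
Left, intergenic share of the autosomal optimal peaks on each chromosome arm, with 95% Wilson intervals. Right, intergenic peaks per Mb of sequence that meets the position rule. The arm 3L stands at 22.0% and 12.3 per Mb, and the interval of its share lies above those of the other arms.

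Within 3L the density was highest in the first 5 Mb, at 32.4 per Mb, lay between 17.0 and 22.0 per Mb over the next 15 Mb, and dropped to 2.02 per Mb between 20 and 25 Mb. No member fell in the last part of that arm beyond 25 Mb, or in the first 5 Mb of 2R and of 3R, regions next to the centromeres. These regions held 1.99, 3.07 and 1.43 Mb of the sequence that meets the rule, which is counted in the arm densities above. Measured over the whole rule, the members had a density of 8.64 per Mb, while the promoter and genic peaks had 20.4 per Mb of the remaining autosomal sequence. The full pooled list was deposited as peaks and background. Among its autosomal entries that the optimal list leaves out, the intergenic share was 31.1% of 24064. That was more than in the optimal list and near the 28.3% of autosomal sequence that meets the position rule.

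Members often shared a gap, but close neighbours were about as common among promoter and genic peaks. The members fell into 169 gaps between neighbouring protein-coding genes, of which 120 held 1 member, 27 held 2 and 22 held 3 or more. Those 22 gaps contained 92 members (34.6%), and 13 of them, with 56 members, were on 3L. Another autosomal peak lay within 1000 bp of 56 members (21.1%), beside 169 of 773 promoter peaks (21.9%) and 197 of 820 genic peaks, and such neighbours do not count as independent sites. The median member sat in a gap of 18434 bp, whereas the median of all 8726 gaps was 459 bp. Gaps over 10 kb held 67.7% of members and 73.9% of all gap sequence. The grouping to be expected from gap length alone was not computed.

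**Figure D4:**
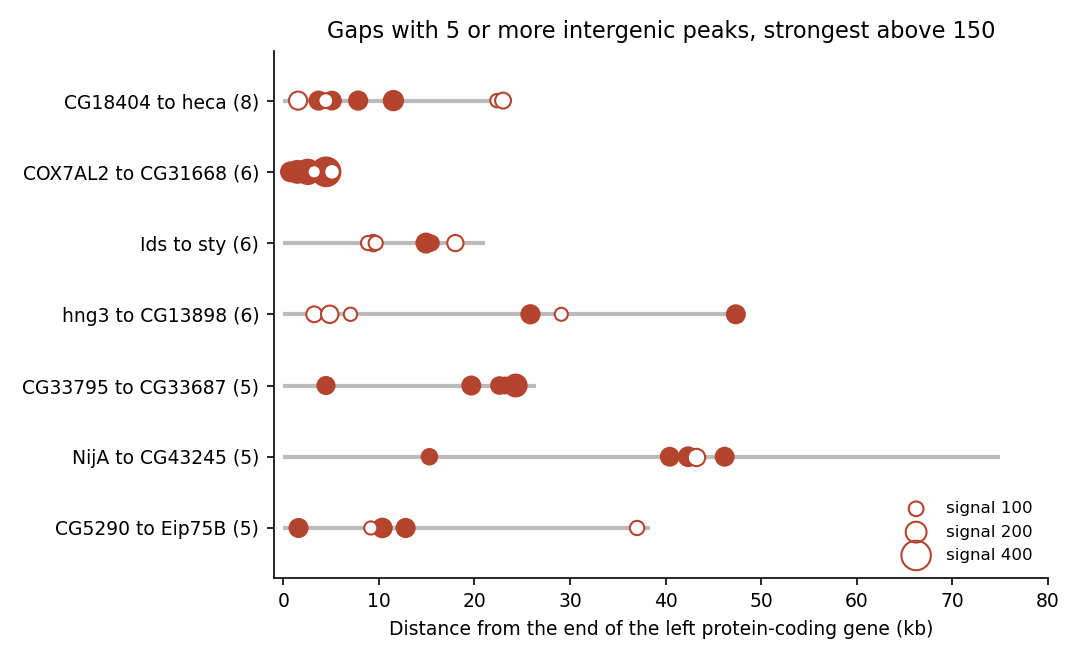
Gaps between protein-coding genes with 5 or more intergenic peaks, the strongest above a signal of 150. Each grey line is a gap, in kb from the end of its left gene, each circle is a summit sized by pooled signal, and filled circles were matched in both replicates. The 6 summits between COX7AL2 and CG31668 are packed into 5808 bp, while 4 of the 5 between NijA and CG43245 lie together, 40440 to 46190 bp into a gap of 75047 bp, with the other at 15297 bp.

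The gap with the most members lay on 3R between CG18404 and heca, the headcase gene of imaginal disc cells, with 8 members over 21449 bp. Their pooled signals ran from 82.1 to 171, and 4 were matched in both replicates. One of them showed how far the replicates could part: the peak 2467 bp from CG18404 had a pooled signal of 152, with 17.0 in replicate 4 and 135 in replicate 2. The gap between COX7AL2 and CG31668 on 2L, 5808 bp long, held 6 members. From the COX7AL2 end their pooled signals were 164, 220, 273, 79.9, 378 and 112. The replicate 4 values were 71.6, 97.6, 117, 33.5, 162 and 72.3, and the replicate 2 values were 98.9, 109, 134, 44.0 and 222 with no peak at the last. The replicates gave the same order of heights for the first 5 sites.

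On 3L, 6 members lay between Ids, which encodes a lysosomal sulfatase, and sty, which encodes Sprouty, an inhibitor of receptor tyrosine kinase signalling. All 6 were nearest to Ids, at 10678 to 19824 bp, and their signals ran from 90.7 to 165. The 5 members between CG33795 and CG33687 had signals of 115 to 220 and were all matched in both replicates. The 6 between Ids and sty had 3 matched in both, so groups of members differed in how well the replicates agreed on them.

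The genes nearest to 3 or more members numbered 20 and included several regulators. The Notch ligand gene Ser had 3 members at 4802 to 7678 bp, with signals from 77.0 to 161, the glypican gene dally had 3 at 1674 to 5703 bp, and foxo, a transcription factor gene of insulin signalling, had 3 at 880 to 3615 bp, none above 98.2. The chromatin gene corto had 3, from 104 to 165, and heca had 3. Others were hng3 with 5, of which the strongest reached 160, and CG5290 with 4, in the gap that leads to Eip75B. Of these 20 genes, hng3, CG6163, corto and foxo also had a promoter peak, beside 5.24% of all autosomal protein-coding genes.

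The nearest genes were set against 19 gene lists, where 1.6% of all autosomal protein-coding genes are nearest to a member and 2.69% stand next to a gap with a member. The lists are described by counts with no test, and several lists of regulatory genes gave shares above these backgrounds. The backgrounds cover all genes, whatever the length of the gap beside them. The median member sat in a gap of 18434 bp, against 459 bp for all gaps, and shares at like gap length were not computed. Lists also share genes, such as CrebA, rib, Antp, kay and chinmo. Of 31 ecdysone response genes, 6 were nearest to a member (19.4%): ImpE1, an ecdysone-induced gene of imaginal discs, with a peak of signal 206 at 3248 bp upstream (83.4 in replicate 4, 114 in replicate 2), Eip63E with 127, Hr38 with 110, Eip93F with 108, Blimp-1 with 101 and Eip75B with 94.2. Of the same list, 10 genes (32.3%) stood next to such a gap, the ecdysone receptor gene EcR among them.

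Basic leucine zipper genes gave 3 of 16 (18.8%): kay, the fly Fos gene, with a peak of 139 at 2628 bp, slbo with 78.8, and CrebA itself. The strongest peak nearest to CrebA lay 1718 bp upstream of its start, with a pooled signal of 124, 30.6 in replicate 4 and 92.0 in replicate 2, and was not matched in both. The gap between CG43248 and CrebA held 3 members in 3921 bp. No optimal peak lay within 500 bp of a CrebA start. Salivary gland regulators gave 3 of 13, CrebA, rib with 90.4 and the homeotic gene Antp with 85.4 at 25538 bp.

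Genes of the GAGA factor and BTB list gave 3 of 13, lola with 145 at 1574 bp, chinmo with 98.8 and rib. The segmentation list gave 4 of 27 (14.8%): wg with a peak of 131, hry with 78.9, knrl with 78.2 and hh with 78.0. The disc patterning list gave 4 of 66 (6.06%): ds, a protocadherin gene of planar polarity, with 161 at 541 bp, Ser with 161, dally with 137, and vn with 78.2. That count was 8 in the list of replicate 2 alone, 6 in that of replicate 4 alone and 9 with a start distance of 250 bp. Of the 14 Polycomb group genes, Su(z)2 was nearest to a member of signal 160 that had no replicate 4 peak, and Psc stood next to a gap with a member of 163. The list of replicate 4 alone gave no Polycomb group gene, and no gene of the homeotic list, of which Antp was 1 of 8 here.

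Few secretory pathway genes, the best known targets of CrebA, were nearest to a member, as were few genes of any kind. Of 52 early secretory genes, 2 were nearest to a member (3.85%, beside 1.6% of all genes), and neither had a promoter peak. SrpRbeta, which encodes a subunit of the signal recognition particle receptor, had a strongest peak of 115 at 15037 bp. Srp9 had one of 83.4 at 4371 bp. Either replicate alone gave 1 nearest gene. In the same list, 8 genes (15.4%) had an optimal promoter peak, beside 5.24% of all genes. None of the 14 unfolded protein response genes, the 12 salivary glue genes, the 13 fat body and storage genes, the 20 muscle genes, the 13 neuronal genes or the 23 antimicrobial peptide genes was nearest to a member. Of the neuronal genes, 3 stood next to a gap with a member (23.1%, beside 2.69% of all genes), namely Syt1, nrv2 and brp, and single-replicate lists gave 1 glue gene (replicate 4) and 1 fat body gene (replicate 2). The JNK and stress list gave 2 of 28, kay and chinmo, and the cell death list gave 1 of 13, Diap1 with 79.5, or 2 in replicate 4 alone. The cuticle list gave 1 of 113, Cpr51A with 91.0, and 0 in replicate 4 alone, and the ribosomal list gave 1 of 77, RpS23 with 129.

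The CREB3 core was rare at intergenic summits, as it was at promoter and genic summits. CACGTCA lay within 100 bp of the summit, on either strand, in 2 members (0.75%, 0.21 to 2.70), near Pdk1 and near RpS23, and in 0.38% of the intergenic peaks of replicate 4 alone. It occurred in 0.94% of the windows shifted by 1000 bp to either side and in 1.02% of all windows that meet the position rule, so the summits had no more than the surrounding sequence. Promoter summits held it in 1.94% (1.18 to 3.18) and genic summits in 0.49% (0.19 to 1.25). The full site CCACGTCA was at 0.38% of intergenic, 0.39% of promoter and 0.12% of genic summits, and in 0.26% of all windows. The counts that follow are for the core CACGTCA. Within 200 bp of the summit it occurred in 7 members (2.63%, 1.28 to 5.33), against 1.32% of flanking windows of the same size. These 7 were near Pdk1 (321), kay (139), RpS23 (129), CrebA (124), daw (89.9), CG43195 (85.7) and CG43815 (78.1). The cyclic AMP response element TGACGTCA and the DNA replication element TATCGATA were found at no summit.

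GAGAG was found within 100 bp of the summit, on either strand, in 80 members (30.1%, 24.9 to 35.8), against 26.9% of their flanking windows and 21.0% of all windows meeting the rule. The ratio of summit to flank share was 1.12, and it was 2.08 for promoter peaks, 47.3% of which held GAGAG at the summit (43.9 to 50.9). The ratio for the intergenic peaks fell to 0.977 when 3L was left out and to 0.825 when a single strongest peak per gap was used, so its direction depended on those sites. The interval of the intergenic summit share lay below that of promoter peaks.

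The GATA factor site and the forkhead site were more frequent at the summits than beside them. AGATAA occurred in 44 members (16.5%, 12.6 to 21.5), against 9.21% of flanking windows and 11.4% of all windows, and TGTTTAC in 17 (6.39%, 4.03 to 10.0), against 2.82% and 3.75%. The forkhead site lay in 14 of the 133 stronger members and 3 of the 133 weaker ones. Genic peaks held the same sites in 16.7% and 6.71%, close to the intergenic shares. The E-box CANNTG and the Pho core GCCAT were less frequent at intergenic summits than in their flanks, 57.5% against 67.9% and 28.2% against 34.4%. Of the remaining sequences searched, 15 in all, ACGTG was at 13.9% of summits and the homeobox core TAATTA at 12.4%. The repeat ACACACAC was at 5.26% and the Zelda site CAGGTAG at 1.13%. ACGTG and ACACACAC were more frequent at the summits than in their flanks, and TAATTA and CAGGTAG were less frequent. The AP-1 site TGANTCA and the nuclear receptor core AGGTCA were each at 2.63% of summits (1.28 to 5.33). Their shares were 5.26% and 4.51% in the flanks, and 3.56% and 5.17% in all windows. All of these lie within the summit interval. These matches describe letters near a summit and show nothing about which factor was there.

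The base composition and repeat content of the summits were near or below those of all windows meeting the position rule. Flanking sequence was not measured for either. The median GC content of the 201 bases around the summit was 38.8%, against 41.3% for all windows meeting the rule and 41.8% for promoter peaks. The summit base was soft-masked as a repeat or simple sequence in 58 members (21.8%, 17.3 to 27.1), against 26.7% of the windows. Among the 20 strongest members it was soft-masked in 7. In the single-replicate lists the share of intergenic peaks was 26.7% (replicate 2) and 26.0% (replicate 4). No summit lay in an annotated transposable element. That allows a share of up to 1.13% by the limit of 3 counts and 1.42% by the Wilson interval. Promoter peaks had 0 of 773 and genic peaks 2 of 820, so the near absence was not particular to intergenic peaks. Of the windows, which include the sequence next to the centromeres, 10.8% lay in one. Among the intergenic peaks of replicate 2 alone the share was 0.42%. How multiply mapped reads were treated is not given in the sources used here, and its part in this result was not tested.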

How the data were processed

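ChIP-seq peaks of CrebA-eGFP came from 2 biological replicates of whole larvae. The authors deposited narrowPeak lists on dm6, with a signal per peak in column 7. They are an optimal list and relaxed lists of 29999 peaks for the pooled data and for each replicate. The relaxed lists are named as peaks and background, the input for IDR. The optimal and pooled lists combine both replicates. For the aligner, peak caller, IDR cutoff and scaling of the signal to depth, nothing is stated (not given in the sources used here). Depth is therefore unknown, and the Wilson intervals cover counting error only. The dm3 lists were not used.

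Summits were placed against Ensembl release 115 genes, with transposable elements left out, and sequence came from the Release 6 RefSeq assembly. Replicate values are the strongest peak of that replicate's list with a summit within 200 bp. Shares are set beside flanks at 1000 bp and beside windows of 201 bp tiled over sequence meeting the position rule, each wholly inside it. No test was made across peaks, since neighbouring peaks are not independent and there is 1 group.

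Members and gene lists were chosen with earlier results of these data known. The text names the 20 strongest members, the 5 farthest from a start, the 5 on either side of 500 bp, genes nearest to 3 or more members, up to 3 genes per list with the strongest nearest member, and members with a CREB3 core within 200 bp. The result for 1 of the gaps between genes is not reported here. The remaining genes named, among them those past the first 3 of a list, were chosen after their values were seen. A value under an alternative counts as unchanged when it stays within 1 SD of the 2 single-replicate values, or, for the number of peaks, within 1.5 times. The position, matching and sequence search code was tested on simulated data. Python 3.11.15, numpy 2.4.6, pandas 2.3.3, scipy 1.17.1 and matplotlib 3.10.9 were used.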

Additional observations from a re-analysis of the deposited data

How the results depend on the processing

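The Release 6 RefSeq annotation gave 266 peaks, all 266 shared, and left the share, signal, distance, matching, promoter, repeat, GAGAG and also CACGTCA results within the spread; gene lists and arms were not recomputed with it. Moving the start distance to 250 bp gave an intergenic share of 17.5%, a median distance of 1584 bp, 68.4% upstream, 14.4% whose nearest gene had a promoter peak, 2.05% of genes nearest to a peak, a GAGAG ratio of 1.19 and 21.2% soft-masked. At 1000 bp these were 10.7%, 3773 bp, 56.3%, 21.6%, 1.20%, 1.05 and 20.1%. Using protein-coding genes alone gave 19.6%, 3946 bp, 18.1% with a promoter peak, 2.01%, 1.26 and 20.6%.

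The stronger 50% of the optimal list held 118 members (12.9%), with a median signal of 150, a median distance of 2637 bp, 85.6% matched in both replicates, 10.2% with a promoter peak, 0.76% of genes, a GAGAG ratio of 1.07, CACGTCA in 1.69% and 21.2% soft-masked. Single-replicate lists gave 240 to 262 peaks, a share of 12.8% to 14.0%, a median signal of 49.1 to 69.4 on their own scales, a median distance of 2460 to 2480.5 bp, 49.6% to 54.2% matched in the other replicate, 63.8% to 66.8% upstream, 17.9% to 18.8% with a promoter peak, 1.54% to 1.59% of genes, a GAGAG ratio of 1.13 to 1.14, CACGTCA in 0.38% to 0.83%, 26.0% to 26.7% soft-masked and 0 to 0.42% in a transposable element.

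The GAGAG ratio was 1.01 with windows of 50 bp to either side, 1.15 with 200 bp, 1.34 with flanks at 500 bp and 1.42 at 2000 bp. CACGTCA was in 0.38% at 50 bp and 2.63% at 200 bp. A summit match of 100 or 500 bp left the matched share within the spread, at 44.7% and 49.6%. The next settings were chosen after seeing the data. Without 3L there were 156 members (11.5%), a median distance of 2394 bp, 1.37% of genes, 20.5% soft-masked and a reversed GAGAG ratio of 0.977. With the strongest peak of each gap, the median distance was 1914 bp, 56.8% were matched, CACGTCA was in 1.18%, 24.3% were soft-masked and the GAGAG ratio reversed to 0.825; the cause was not tested. No paired analysis was possible because there is 1 group. Across the gene lists, 88 counts stayed within 1.5 times under the alternatives and 26 did not. Depth is unknown, so what it limits could not be judged.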
